A study of Mus musculus with 614 samples.

Results

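Plasmacytoid dendritic cells (pDC) of mouse bone marrow were compared, across all genes, with cells from a gate set for pre-pro-B cells. By their labels 27 of the 614 cells of the study were marrow pDC and 30 were pre-pro-B gate cells, so the comparison covered 57 cells. All were untreated primary cells of adult C57BL/6J mice aged 7 to 10 weeks. The pDC were sorted as Lin-B220+SiglecH+, and the pre-pro-B gate as Lin-B220+CD43+ cells with CD93, Flt3, IL7R and CXCR4 on the surface and with low CD117 and CD24. Marrow was enriched for progenitors with magnetic beads before the sort. Each cell was lysed and its polyadenylated RNA amplified on a microfluidic chip (Fluidigm C1), and libraries were made only of cells whose cDNA was of high quality. The values are TPM, a unit in which each gene's level is its share of a cell's transcripts, corrected for gene length.

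pDC are the immune cells known for releasing large amounts of type I interferon when their endosomal receptors meet viral nucleic acid. Their identity is held by the E protein TCF4 (E2-2), which acts with SPIB and RUNX2. The pre-pro-B stage is defined as the first step of the B lineage and carries B220. Along this lineage EBF1 and then PAX5 switch on the pre-B receptor genes, mainly after that stage. pDC and early B cell precursors share B220, IL7R in part, and transcripts of the immunoglobulin heavy chain locus, and both can derive from progenitors that carry the surface protein Ly6D.

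The libraries of the gates came from different runs, read here from the library names in the labels. Of the pDC, 24 shared a run with 58 common dendritic progenitors (CDP), and 3 came from a second run. By their labels these CDP were the CD115-negative ones, sorted as Lin-CD11c-MHCII-Flt3+c-KitintCD115-IL7R-. All 30 pre-pro-B gate cells shared another run with 48 common lymphoid progenitors (CLP) and 51 granulocyte-monocyte progenitors (GMP). Gate moved with run and with the sex of the mice. Y-linked transcripts without Xist were found in 26 of 27 pDC, and Xist without Y-linked transcripts in 20 of 30 pre-pro-B gate cells. Gate, run and sex therefore cannot be told apart in a difference between the gates. The run of the pre-pro-B gate held both sexes: Y-linked transcripts alone were found in 28 CLP and 13 GMP, and Xist alone in 9 and 29. A difference between the pre-pro-B gate and CLP therefore also spans unlike shares of the sexes, and its part was not tested. Beside each such difference stands the difference between run mates, which is the CDP level minus the mean of the CLP and GMP levels. The within-run differences, pDC minus CDP and pre-pro-B gate minus CLP or GMP, stand beside it too. No label names an animal or a pool, so each gate was 1 sample: SDs are over cells, no p-value was computed, and a gene was called higher where the mean over cells of log2(TPM + 1) differed by 2 or more. TPM keep no depth. Genes at 1 TPM or more numbered 3006 to 6005 in pDC (median 4398) and 2671 to 6310 in the pre-pro-B gate (median 3315.5). Mitochondrial transcripts took a median of 9.37% of TPM in pDC and 3.03% in the pre-pro-B gate.

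Several genes that define the B lineage were not detected in the pre-pro-B gate, and Siglech, a defining gene of pDC, was detected in all of its cells. Pax5, Vpreb1, Vpreb2, Igll1 (the last 3 encode the surrogate light chain) and Pou2af1 were at 0 TPM in all cells of both gates. A count of 0 among 27 cells allows a share of up to 11.1% of cells with a detected transcript (3 counts, counting error only), and among 30 cells a slightly smaller one. Siglech, whose protein was used to sort the pDC but not the pre-pro-B gate, lay at 288.7, 1872 and 4477 TPM (lowest, median, highest cell) in the pre-pro-B gate. In the pDC it lay at 4.37, 1912 and 7779 TPM. The range of the pre-pro-B gate lay inside that of the pDC, and the means of log2(TPM + 1) were 10.64 ± 0.92 (SD, 30 cells) and 10.41 ± 2.09 (SD, 27 cells). These B lineage genes are named because they were at 0. Pax5 and the pre-B receptor genes rise mainly after the pre-pro-B stage, so their zeros do not decide whether the label holds. Other listed genes of B cells, among them Blnk, Cd72, Blk and Ighm, were detected in both gates and are given below. Transcripts of the gate's own sort proteins matched the label in part, and the cells are called here by their gate.

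**Figure D1:**
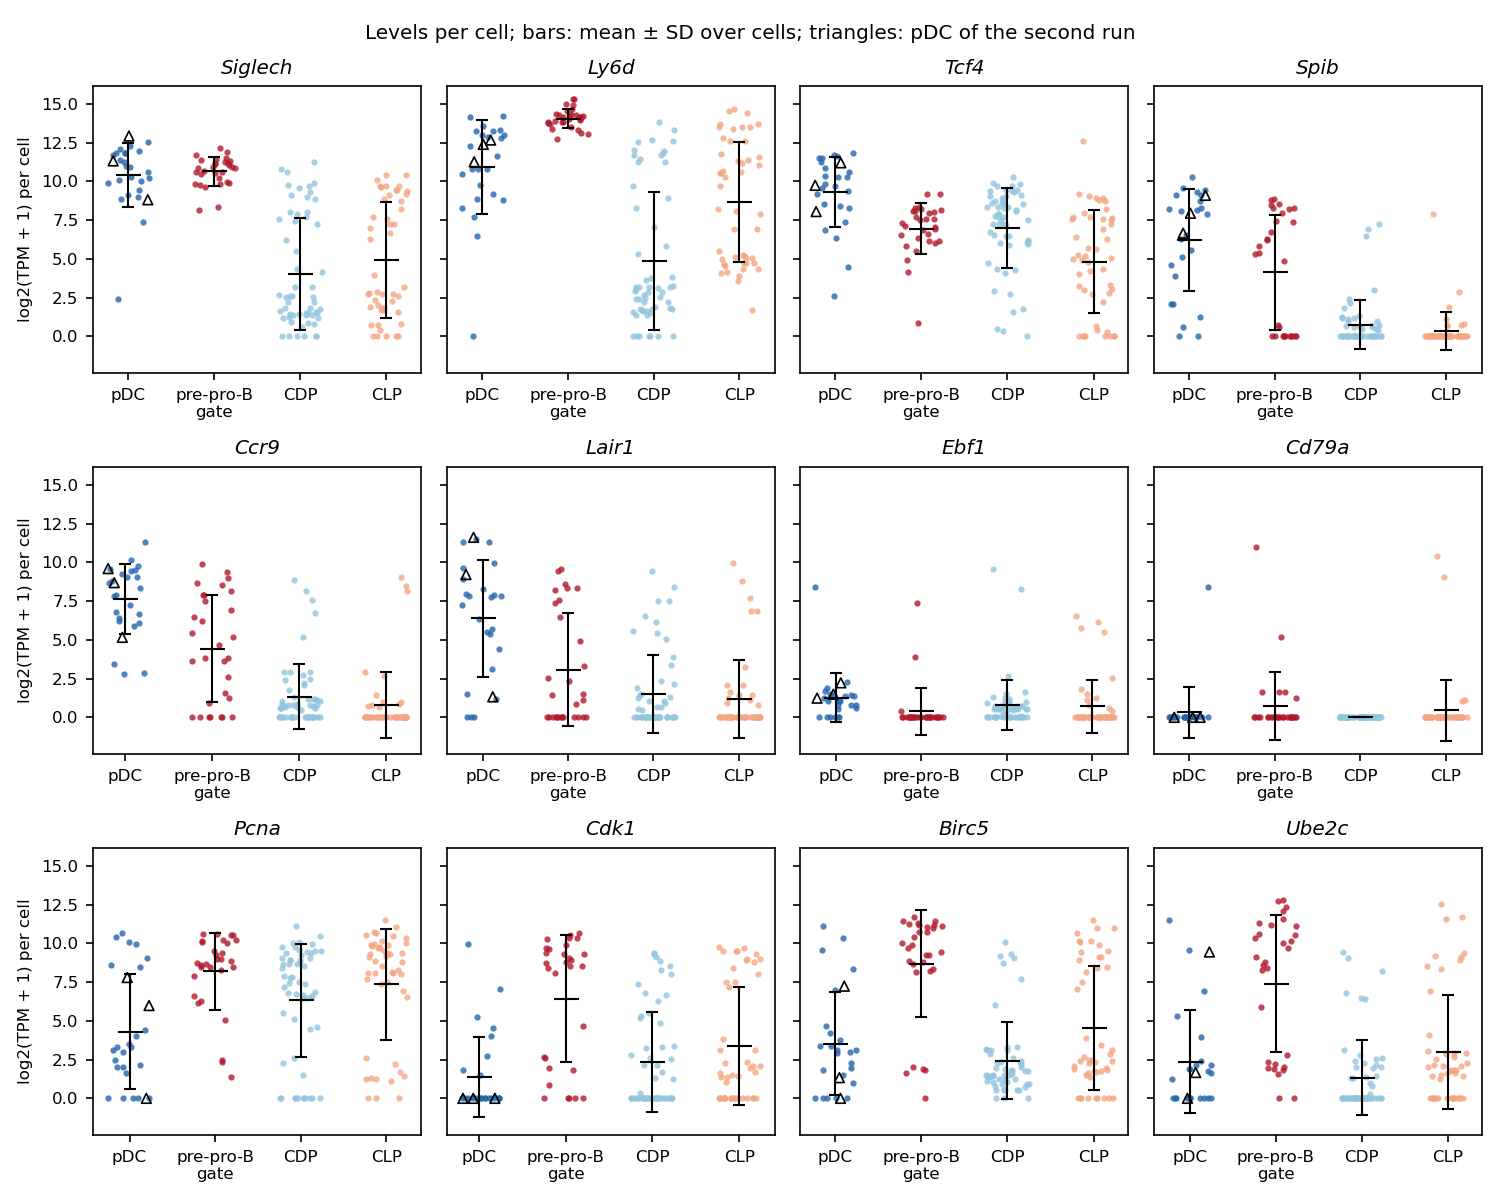
Levels of 12 genes in each cell, as log2(TPM + 1), in pDC, the pre-pro-B gate, CDP and CLP; bars give the mean and the SD over cells, and open triangles mark the 3 pDC of the second run. Siglech is at 288.7 TPM or more in all 30 pre-pro-B gate cells, Ebf1 and Cd79a are near 0 in nearly all cells of the 4 gates, and Cdk1, Birc5 and Ube2c are high in most pre-pro-B gate cells and low in most pDC.

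The transcripts of the other sort proteins matched the pre-pro-B gate in part, and they serve here as a check of the labels only. Flt3 reached 10 TPM in 27 of the 30 cells, Il7r in 24, Ptprc (B220 is an isoform of its product) in 26 and Cxcr4 in 19. Spn (CD43) was there in 14 and Cd93 in 10. Kit, whose protein was low in the gate, was there in 1. The transcript of CD24, the other protein low in the gate, is not given here, so the check of the labels is incomplete. Among pDC, Flt3 reached 10 TPM in 6 of 27 cells and Il7r in 19. Mean Flt3 was 2.92 ± 2.35 in pDC against 7.34 in CDP of the same run, which were sorted as Flt3+.

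The transcription factors of the pDC programme were present in both gates. Of 9 listed factors, all compared, 2 were higher in pDC and 1 in the pre-pro-B gate, and the median difference over the list was 0.01 against -0.26 over all 8239 compared genes. Across all compared genes 6.08% were called higher in pDC and 13.8%, or 1140 genes, higher in the pre-pro-B gate. Thus 30.5% of all calls were in favour of pDC, and this split depended on the scale: it was 46.5% with median-of-ratios size factors, which moved the median of all genes by 0.30, and 50.2% with the log2 of the mean TPM. Tcf4 lay at 4.98, 855.8 and 3596 TPM (lowest, median, highest cell) in pDC and at 0.85, 146 and 575 TPM in the pre-pro-B gate. The middle of the pDC range lay above the highest pre-pro-B gate cell, though the ranges overlapped at their lower ends. The means of log2(TPM + 1) were 9.31 ± 2.26 and 6.94 ± 1.64, a difference of 2.37. The run mates differed more, by 3.38. pDC exceeded CDP by 2.25 and the pre-pro-B gate exceeded CLP by 2.13, a like amount. The pre-pro-B gate exceeded GMP of its run by 2 or more as well, so the like amount is for CLP only.

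Spib, which encodes an ETS factor that pDC share with B cells, was also higher in pDC, by 2.09. Its levels were 0, 241.8 and 1245 TPM (lowest, median, highest) in pDC and 0, 39.2 and 465.4 TPM in the pre-pro-B gate. It reached 10 TPM in 21 of 27 pDC and 17 of 30 pre-pro-B gate cells. In the progenitors it was near 0, with means of log2(TPM + 1) of 0.75 in CDP and 0.35 in CLP. Thus pDC exceeded CDP by 5.27 and the pre-pro-B gate exceeded CLP by 3.79.

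Irf8 and Runx2 were level between the gates. Irf8 lay at a median of 1256 TPM in pDC and 1249 TPM in the pre-pro-B gate, and each gate exceeded its progenitor, by 2.61 over CDP and 2.92 over CLP. Runx2 had the same mean of log2(TPM + 1) in both, 7.72, with an SD of 2.43 in pDC and 1.30 in the pre-pro-B gate. Irf7, the factor that drives interferon genes, had a difference of -0.21, at 10 TPM in 12 pDC and 10 pre-pro-B gate cells. Cxxc5, a zinc finger protein that supports Irf7 in pDC, was higher in the pre-pro-B gate (-2.57) and reached 10 TPM in 3 pDC and 17 pre-pro-B gate cells. Zeb2 (1.71), Bcl11a (0.93) and Cbfa2t3 (-0.24) lay within the threshold of 2 log2 units.

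The surface and effector genes of pDC divided by gene rather than all moving one way. Of 20 listed genes 19 were compared, and 6 were higher in pDC and 2 in the pre-pro-B gate. Among all compared genes 6.08% and 13.8% were. The median difference of the 20 was 0.96. Against CDP of their own run, 17 of the 20 were higher in pDC by 2 or more, with a median of 4.02, where 1.41% of all compared genes were. Against CLP of their own run, 14 of the 20 were higher in the pre-pro-B gate, with a median of 3.30, where 3.06% of all compared genes were. Against CDP and CLP none was lower by 2 or more. Against GMP, 12 were higher in the pre-pro-B gate and 1 was lower, where 1.71% and 21.3% of all compared genes were. The list was drawn up with earlier results of these data known, so its counts are a description.

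Ccr9, the chemokine receptor that guides pDC to the small intestine, was higher in pDC. Its levels were 5.80, 321.6 and 2601 TPM in pDC (lowest, median, highest) and 0, 19.1 and 930 TPM in the pre-pro-B gate. All pDC had some Ccr9, whereas the pre-pro-B gate held cells from 0 up to pDC levels. The difference in mean log2(TPM + 1) was 3.21 between the gates and 0.80 between the run mates. Ccr9 exceeded CDP by 6.28 in pDC and CLP by 3.65 in the pre-pro-B gate.

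Klk1, a tissue kallikrein, and Lair1, an inhibitory receptor for collagen, showed the same order. Klk1 reached 10 TPM in 16 of 27 pDC and 7 of 30 pre-pro-B gate cells, a difference of 3.35 with run mates apart by 0.01. The 3 pDC of the second run had 0, 0 and 5.45 TPM of Klk1, so its higher level rests on the other 24. Lair1 reached 10 TPM in 20 pDC and 10 pre-pro-B gate cells, a difference of 3.33 with run mates at -0.67. Within the runs, Klk1 exceeded CDP by 5.75 and CLP by 1.96, and Lair1 exceeded them by 4.79 and 1.90. Against GMP the pre-pro-B gate stood at 1.77 for Klk1 and -0.08 for Lair1.

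Sdc4, Ptprs and Cybb were higher in pDC as well. Sdc4 (syndecan 4) lay at medians of 906.2 and 32.98 TPM and differed by 4.99, with run mates apart by 3.77. Ptprs, a receptor phosphatase that restrains pDC activation, differed by 3.38, and Cybb, a subunit of the phagocyte NADPH oxidase, by 2.45. All 3 exceeded CDP or CLP of their own run: Cybb stood 6.55 above CDP and 4.35 above CLP.

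Other pDC genes were as high or higher in the pre-pro-B gate. Pacsin1, an adaptor in membrane trafficking, was at 0 in the median pDC and at 5.02 TPM in the median pre-pro-B gate cell. It reached 10 TPM in 4 of 27 and 14 of 30 cells and was lower in pDC, at -2.46. Cox6a2, a cytochrome c oxidase subunit, lay at medians of 1323 TPM in pDC and 3669 TPM in the pre-pro-B gate, a difference of -2.06. Without the 3 pDC above 20% mitochondrial TPM, 1 of these 2 calls was left. Bst2 (tetherin, -1.91), Ly6c2 (-0.30), Atp1b1 (-0.12), Rnase6 (-0.13), Cd7 (-0.76) and Havcr1 (0.28) did not reach the threshold.

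**Figure D2:**
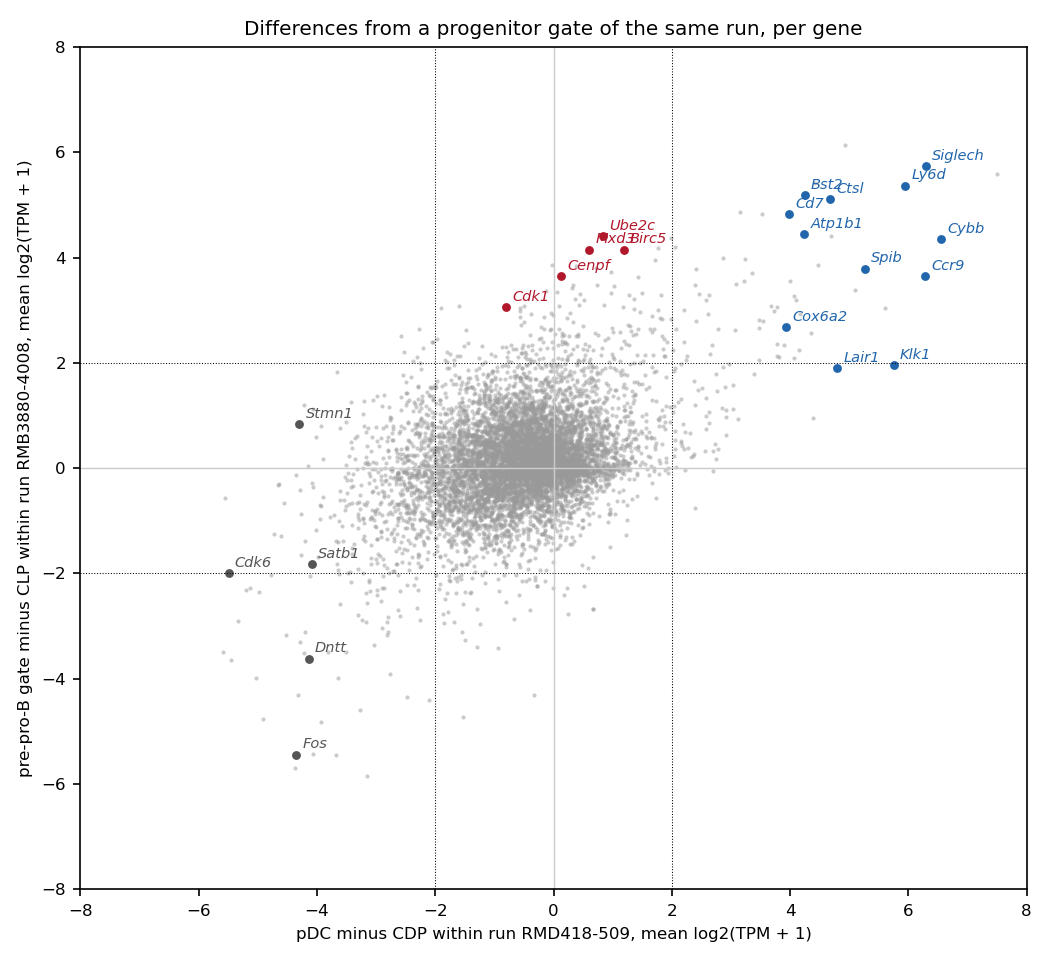
Each point is a compared gene, placed by the difference in mean log2(TPM + 1) between pDC and CDP of the same run (x) and between the pre-pro-B gate and CLP of the same run (y); dotted lines mark 2. The labelled pDC genes lie at the upper right, with Klk1 (1.96) and Lair1 (1.90) just below 2 on the y axis. Cdk1, Birc5, Ube2c, Cenpf and Mxd3 lie above 2 on the y axis only.

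What the gates shared over the progenitors of their runs was also measured across all genes. Of the 116 genes higher in pDC than in CDP, 60 (51.7%) were higher in the pre-pro-B gate than in CLP, against 3.06% of all compared genes. These 60 were 23.8% of the genes on that side. Of the 705 genes lower in pDC than in CDP, 63 (8.94%) were lower in the pre-pro-B gate than in CLP, against 1.44%. Genes were compared by their detection in pDC or the pre-pro-B gate, which favours genes high in these gates. Of the 80 genes higher in the pre-pro-B gate than in both CLP and GMP, 48 were among the 116, which are 1.41% of all compared genes. The 2 within-run differences had no cell in common and a Pearson correlation of 0.41 across 8239 genes (Spearman 0.27). Genes are not independent replicates. Besides pDC genes, those above every run mate in both gates took in Ly6d, the protease gene Ctsl, the antigen presentation genes Cd74, H2-Aa and H2-Eb1, the kinase gene Fgr and the adaptor gene Fyb.

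Ly6d, which marks lymphoid progenitors with B cell potential and in this study's title pDC progenitors, was present in every cell of the pre-pro-B gate. It lay at 6661, 17387 and 40631 TPM there (lowest, median, highest cell) and at 0, 3225 and 19415 TPM in pDC. Most pre-pro-B gate cells stood above most pDC, and the mean of log2(TPM + 1) was lower in pDC, at -3.11, with run mates at -1.77. Within the runs Ly6d exceeded CDP by 5.94 and CLP by 5.37. Both Siglech and Ly6d reached 100 TPM in 30 of 30 pre-pro-B gate cells (exact Clopper-Pearson 95% interval from 88.4% upwards, counting error only) and in 24 of 27 pDC (88.9%, 70.8 to 97.6%). Among run mates this held for 12 of 58 CDP (20.7%) and 17 of 48 CLP (35.4%).

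The profile over all compared genes lay nearer to the run mates than to the pDC, though for GMP this depended on the genes and the measure. Mean levels of the pre-pro-B gate had a Spearman correlation of 0.88 with CLP and 0.83 with GMP, which share its run. With pDC the correlation was 0.47, with CDP 0.59 and with the SiglecH+Ly6C- pre-DC, a further gate of SiglecH-positive precursors, 0.60. Over the 4274 genes whose run mates differed by less than 1, the value with pDC was 0.58 and with CLP 0.82. With CDP it was 0.73, with the SiglecH+Ly6C- pre-DC 0.72 and with GMP 0.77. By Pearson correlation over these 4274 genes GMP came lowest, at 0.85, below pDC (0.87) and CDP (0.89). The SiglecH+Ly6C- pre-DC stood at 0.91 and CLP at 0.92. CDP share a run with most of the pDC, and in both sets of genes the value with CDP was above that with pDC. For CLP and GMP against gates of other runs, runs and cells cannot be told apart.

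Promoter windows of 3 pDC genes are shown because E proteins such as TCF4 bind the E-box, whose letters are CANNTG. The sequences are from RefSeq (GRCm38.p6), run from 250 bases before to 50 after the annotated start, and read 5′ to 3′ on the strand of the gene. Capitals mark each CANNTG, which reads the same on both strands.
Siglech, chr7:55767934-55768233, plus strand: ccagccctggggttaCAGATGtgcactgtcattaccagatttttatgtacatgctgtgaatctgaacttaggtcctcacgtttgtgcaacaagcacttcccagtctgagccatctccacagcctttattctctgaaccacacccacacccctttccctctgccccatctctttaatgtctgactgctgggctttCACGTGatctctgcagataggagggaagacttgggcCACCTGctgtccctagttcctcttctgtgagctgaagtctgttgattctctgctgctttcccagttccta
Ccr9, chr9:123766961-123767260, plus strand: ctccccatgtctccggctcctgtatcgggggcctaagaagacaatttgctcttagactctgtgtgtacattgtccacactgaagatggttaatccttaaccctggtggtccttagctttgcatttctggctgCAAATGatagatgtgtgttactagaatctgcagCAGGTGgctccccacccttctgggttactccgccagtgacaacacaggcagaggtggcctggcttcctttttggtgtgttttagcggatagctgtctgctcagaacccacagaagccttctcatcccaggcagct
Spib, chr7:44532022-44532321, minus strand: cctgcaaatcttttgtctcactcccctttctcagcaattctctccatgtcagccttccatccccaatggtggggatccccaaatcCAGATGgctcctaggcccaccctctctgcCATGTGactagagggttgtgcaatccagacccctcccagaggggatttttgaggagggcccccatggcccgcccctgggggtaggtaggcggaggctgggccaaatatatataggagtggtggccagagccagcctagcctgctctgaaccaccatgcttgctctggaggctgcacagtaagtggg

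The windows hold 3, 2 and 2 matches to CANNTG. Of the 29 listed pDC factors and surface genes 23 had a window, and 17 of these (73.9%) held a CANNTG, against 72.1% of all 27025 windows of this length. The stricter form CAGGTG, searched on both strands, was in 6 of the 23 (26.1%) and in 5418 of all 27025 windows. It occurs 1 time in the Siglech window, as CACCTG, and 1 time in the Ccr9 window. A match is a description of letters and not of binding.

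Most B lineage transcription factors were low in both gates, while some B cell signalling genes were not. Of 10 listed B lineage transcription factors 5 could be compared. In pDC 1 was higher and in the pre-pro-B gate none, where 6.08% and 13.8% of all compared genes were. That 1 was Ets1, an ETS factor that B cells and other lymphocytes share, at a difference of 2.76 and at 10 TPM in 11 pDC and 4 pre-pro-B gate cells. Ebf1, the factor that commits cells to the B lineage, reached 10 TPM in 1 of 27 pDC and 2 of 30 pre-pro-B gate cells. Foxo1 was there in 4 and 7 cells, and Tcf3 (E2A) in 2 and 11.

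Of 15 pre-B receptor and B cell signalling genes 9 were compared, and 1, Ralgps2, was higher in pDC. Among all compared genes 6.08% were. Ighm transcripts were abundant in both gates, at medians of 2365 TPM in pDC and 2063 TPM in the pre-pro-B gate, and about as high in CDP and CLP. Means of log2(TPM + 1) were 10.80, 10.94, 10.69 and 10.59 in that order. Cd79b reached 10 TPM in 3 pDC and 9 pre-pro-B gate cells. The adaptor gene Blnk did so in 18 and 21 cells, the kinase gene Blk in 5 and 11, and Cd72 in 13 and 20. These 4 differed between the gates by less than 2.

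The recombination genes followed the same lines. Rag1 was at 10 TPM or more in no pDC and 1 pre-pro-B gate cell, and so was Rag2. Among all compared genes 13.8% were called higher in the pre-pro-B gate. Dntt, the terminal transferase of early lymphoid cells, was the 1 of 4 compared recombination genes called, lower in pDC at -2.30. It lay at 0, 7.65 and 847.1 TPM in pDC (lowest, median, highest) and at 0.86, 82.2 and 2589 TPM in the pre-pro-B gate, with wide overlap. Each gate lay below CDP or CLP of its run: pDC were at -4.14 against CDP and the pre-pro-B gate at -3.62 against CLP. The 3 pDC of the second run had 40.3, 72.5 and 644.6 TPM, and with those pDC alone the difference was 1.06.

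Single cells stood apart, and they are named, after their values were seen, because Ebf1 reached 10 TPM in them. Pre-pro-B gate cell 16 had 163.25 TPM of Ebf1, 2012 of Cd79a, 2589 of Dntt and 0.85 of Tcf4, beside 327.5 of Siglech and 411 of Ccr9. Cell 22 of that gate had 14.01 TPM of Ebf1, 34.6 of Cd79a and 2126 of Dntt, beside 112.9 of Tcf4, no Ccr9 and 288.7 of Siglech, the lowest of the gate. pDC 20 had 337 TPM of Ebf1, 847.1 of Dntt and 4.37 of Siglech, beside 81.7 of Tcf4 and 735 of Ccr9. Other pDC genes were thus not uniformly low in them. Thus the 3 cells with Ebf1 at 10 TPM or more held the lowest Siglech of pDC, the lowest of the pre-pro-B gate and the highest Dntt of each gate. Without these 3 cells 1124 genes were higher in the pre-pro-B gate, and 31.1% of all called genes were higher in pDC, against 30.5% with them.

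Other early lymphoid genes were lower in pDC or level. Across all compared genes, 13.8% were called higher in the pre-pro-B gate and 6.08% in pDC. Of 12 listed genes 10 were compared, with a median difference of -0.70 over the list. In the pre-pro-B gate 3 were higher, and in pDC none. Besides Ly6d these were Lck, a kinase of lymphoid cells (-2.63), and Ptprcap, a partner of CD45 (-4.85). Ptprcap lay at medians of 66.8 TPM in pDC and 1284 TPM in the pre-pro-B gate, but its run mates differed in the same direction, at -1.21, and the pre-pro-B gate was level with CLP (-0.18). Satb1, Bcl2 and Sox4 were lower in pDC than in CDP, at -4.08, -4.28 and -2.82. Without the 3 cells with Ebf1, 2 of the listed genes passed the threshold in favour of pDC.

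Of the lists with over 10 genes, the cell cycle genes had the largest median differences between the gates. All 17 listed G2/M genes and all 15 S phase genes had a lower mean in pDC. Of the G2/M genes 12 were called higher in the pre-pro-B gate, with a median of -3.23, and of the S phase genes 8, with a median of -2.06. Among all compared genes 13.8% were called so. Both lists also differed between the run mates, with medians of -2.19 and -1.32. The number of genes detected correlated with the G2/M level across cells (Spearman 0.36 in 27 pDC and 0.39 in 30 pre-pro-B gate cells), and its part in the result was not tested.

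Birc5 (survivin, a part of the chromosomal passenger complex) lay at 0, 7.06 and 2194 TPM in pDC (lowest, median, highest) and at 0, 901.8 and 3389 TPM in the pre-pro-B gate. Cdk1, the kinase that drives mitosis, lay at 0, 0 and 982.1 TPM and at 0, 397 and 1634 TPM. Ube2c, the ubiquitin-conjugating enzyme of the anaphase-promoting complex, reached 10 TPM in 6 of 27 pDC and 20 of 30 pre-pro-B gate cells. In each of these genes the pre-pro-B gate held a large high group and a smaller low one, while most pDC were low. The differences in mean log2(TPM + 1) were -5.17, -5.07 and -5.06.

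The within-run differences separated the 2 phases. The G2/M genes were higher in the pre-pro-B gate than in CLP of the same run, by a median of 2.64 and by 2 or more in 12 of 17, against 3.06% of all compared genes. Against GMP of that run their median was -0.11, and in pDC against CDP it was 0.12. Of the S phase genes in pDC, 10 of 15 were lower than in CDP by 2 or more, against 8.56% of all compared genes, with a median of -2.18. The S phase median of the pre-pro-B gate was 0.11 against CLP and -1.93 against GMP, where 7 of the 15 were lower by 2 or more, against 21.3% of all compared genes. Without the 3 pDC above 20% mitochondrial TPM, 5 of the 15 S phase genes were lower than in CDP, and the G2/M count against CLP was again 12.

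Pcna, the sliding clamp of DNA replication, followed this pattern. It lay at 0, 8.77 and 1641 TPM in pDC (lowest, median, highest) and at 1.57, 442.4 and 1579 TPM in the pre-pro-B gate. It was at 10 TPM or more in 12 of 27 and 27 of 30 cells. The mean stood at -2.05 against CDP in pDC and at 0.83 against CLP in the pre-pro-B gate. The helicase genes Mcm6 (-3.44) and Mcm7 (-3.12) and the dUTPase gene Dut (-4.35) also differed between the gates.

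Counted per cell, 5 or more of the 17 G2/M genes were at 10 TPM or more in 8 of 27 pDC (29.6%, exact 95% interval 13.8 to 50.2%) and in 23 of 30 pre-pro-B gate cells (76.7%, 57.7 to 90.1%). The same count was met by 10 of 58 CDP (17.2%), 16 of 48 CLP (33.3%) and 47 of 51 GMP (92.2%). For the S phase genes, 5 or more of 15 were reached in 5 pDC (18.5%), 24 of 30 pre-pro-B gate cells, 37 CDP (63.8%) and 32 CLP (66.7%). Cycling genes and pDC genes were found in the same cells: both Siglech and Birc5 reached 100 TPM in 25 of 30 pre-pro-B gate cells and in 5 of 27 pDC. Siglech and Cdk1 were so in 19 and in 1. Siglech reached 100 TPM in all 30 pre-pro-B gate cells, so the counts there are those of Birc5 and Cdk1 alone. In pDC the joint shares were 18.5% and 3.7%, against 21.4% and 7.13% from the product of the single shares.

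**Figure D3:**
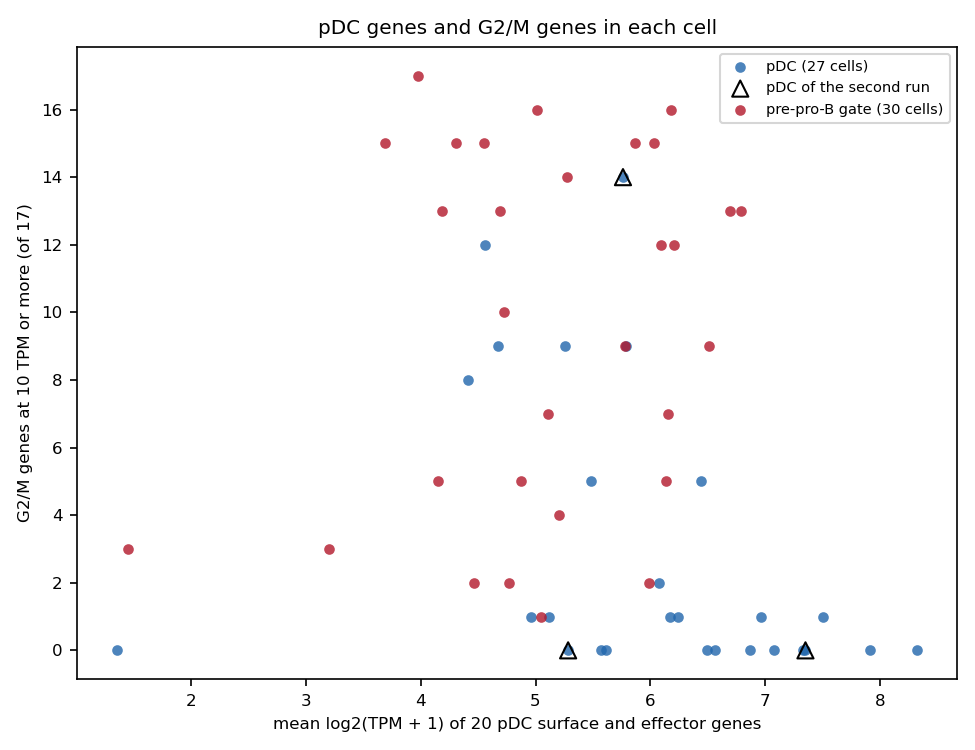
Number of G2/M genes at 10 TPM or more (of 17, y) against the mean log2(TPM + 1) of 20 pDC surface and effector genes (x) in each cell of the 2 gates. Of the pre-pro-B gate cells 23 of 30 lie at 5 genes or more and of the pDC 8 of 27, and the 2 gates overlap along the x axis.

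Among pDC the cells with more G2/M transcripts tended to have lower pDC surface genes (Spearman -0.36 over 27 cells), which was not so in the pre-pro-B gate (0.07 over 30 cells). The points of each gate share a library run, and no difference between these values was tested. S phase and G2/M levels varied together across pDC (0.64) and ran against each other across pre-pro-B gate cells (-0.39).

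Of 12 listed genes of the G1 step, all compared, 1 was higher in pDC, 3 were higher in the pre-pro-B gate and 8 lay within the threshold. Among all compared genes 6.08% were higher in pDC and 13.8% in the pre-pro-B gate. Ccnd3, the D-type cyclin of lymphoid precursors, lay at medians of 1.52 TPM in pDC and 713 TPM in the pre-pro-B gate and was lower in pDC, at -5.72, with run mates at -2.88. Its kinase gene Cdk4 was lower too, at -3.93. The inhibitor gene Cdkn2d was also called lower in pDC, but its sign changed with the 3 pDC of the second run alone. Cdkn1b, the inhibitor p27 of resting cells, was the 1 gene of the list higher in pDC, by 2.51, but CDP exceeded CLP and GMP by more (3.33) and pDC were level with CDP (-0.28). Cdk6 and Ccnd2, which drive progenitor division, were the genes of the list lowest in pDC against CDP, at -5.50 and -4.98. Ccnd2 was lower in the pre-pro-B gate than in CLP as well, at -2.36. Mxd3, a MYC antagonist of the cycling cell, was higher in the pre-pro-B gate (-4.08) with run mates within 1, and exceeded CLP by 4.15 and GMP by 3.86.

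Promoter windows of Cdk1 and Ube2c are shown because promoters of this phase are known for a CCAAT box and the cell cycle homology element TTTGAA, both searched on both strands. Capitals mark each match to either element on either strand, and neighbouring matches may overlap. Source, window and strand are as for the pDC genes.
Cdk1, chr10:69352863-69353162, minus strand: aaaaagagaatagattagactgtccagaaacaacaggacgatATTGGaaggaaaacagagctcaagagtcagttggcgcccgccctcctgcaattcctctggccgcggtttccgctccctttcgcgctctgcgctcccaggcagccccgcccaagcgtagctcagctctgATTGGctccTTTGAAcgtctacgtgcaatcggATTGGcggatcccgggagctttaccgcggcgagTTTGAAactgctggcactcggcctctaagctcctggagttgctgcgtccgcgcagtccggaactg
Ube2c, chr2:164769679-164769978, plus strand: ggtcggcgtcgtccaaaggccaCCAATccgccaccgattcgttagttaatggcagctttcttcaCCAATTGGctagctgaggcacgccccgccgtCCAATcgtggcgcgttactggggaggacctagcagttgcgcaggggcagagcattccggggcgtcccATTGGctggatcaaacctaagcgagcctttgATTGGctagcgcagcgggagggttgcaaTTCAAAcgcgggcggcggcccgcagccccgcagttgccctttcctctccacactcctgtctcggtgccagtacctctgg

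The Cdk1 window holds 3 CCAAT and 2 TTTGAA matches, the Ube2c window 6 and 1, and the Birc5 window none of either. Of the 17 G2/M genes 15 had a window. CCAAT was in 14 of them (93.3%) against 10275 of all 27025 windows, and TTTGAA in 11 (73.3%) against 18.2%.

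Across the whole gene table the largest differences went with the run mates. By the rule for named genes, the 15 largest differences in favour of pDC ran from 4.78 to 8.59 and took in Calb1, Zfp260, Bhlhe41, Lgmn, Actr2, Inpp4a, Birc6, Traf5, Sdc4 and Sik2. Calb1, a calcium buffer, lay at 91.95 to 3014 TPM in pDC and was listed at 0 in all 30 pre-pro-B gate cells. Its run mates differed by 7.05, and pDC exceeded CDP by 1.69. In all 15 genes the run mates differed by 2 or more in the same direction. Sdc4 was the 1 of the 15 in which pDC exceeded CDP by more than 2.

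The 15 largest differences in favour of the pre-pro-B gate ran from -9.81 to -6.03. They took in the histone gene Hist1h2ap (-9.81), Stmn1, which encodes a microtubule regulator (-7.66), Cks1b, a partner of CDK1 (-7.13), Hes6 (-6.62), Ube2s, H2afx and the nuclear transport gene Ranbp1. Here too all 15 had run mates 2 or more apart in the same direction. Stmn1 differed within the pDC run as well: it was at a median of 8.17 TPM in pDC and 6519 TPM in the pre-pro-B gate, and pDC stood at -4.30 against CDP while the pre-pro-B gate exceeded CLP by 0.83. Hist1h2ap did not, with pDC at -0.53 against CDP.

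Of all genes higher in pDC, 329 (65.7%) had run mates 2 or more apart in the same direction, and 60 had run mates within 1. Of the 1140 genes higher in the pre-pro-B gate these were 611 (53.6%) and 185. Across all compared genes the difference between the gates had a Spearman correlation of 0.76 with the difference between the run mates, which have no cell in common with the gates.

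**Figure D4:**
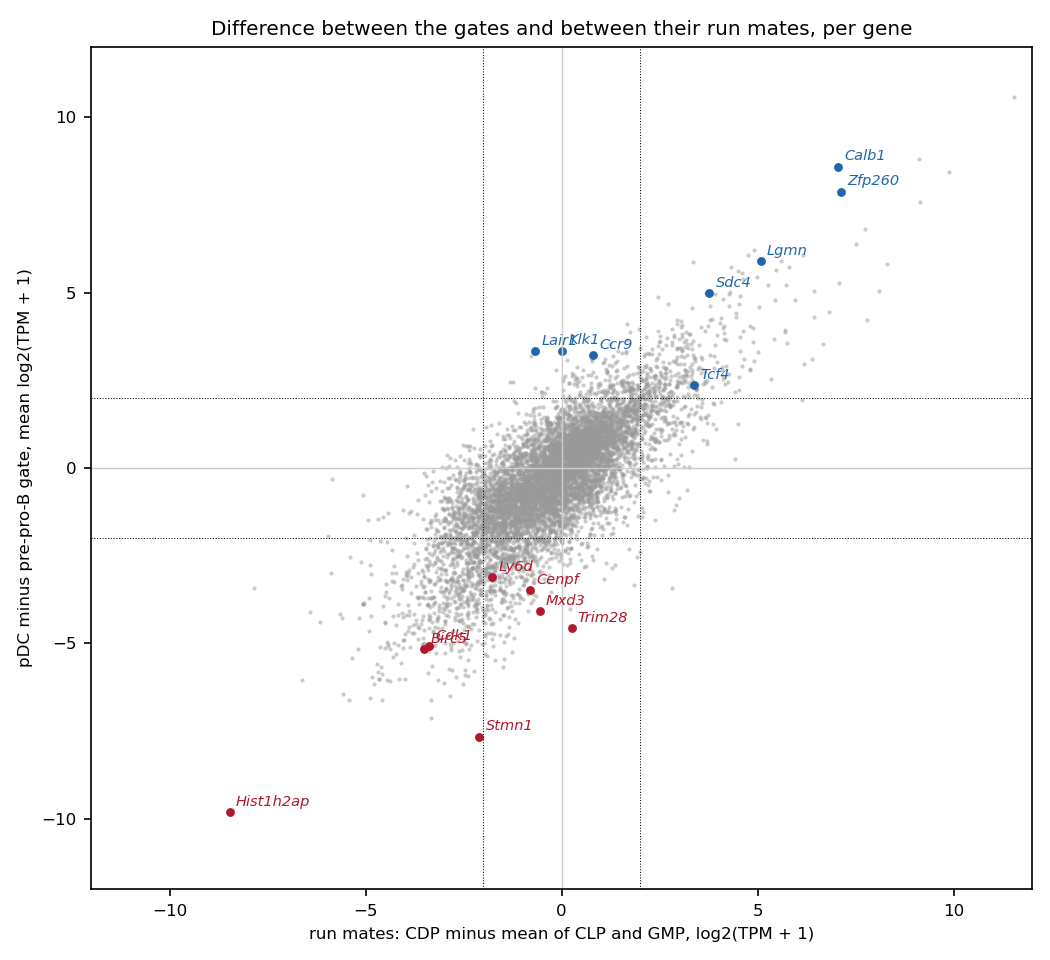
Each point is a compared gene, placed by the difference between the run mates (x, CDP minus the mean of CLP and GMP) and the difference between the gates (y, pDC minus pre-pro-B gate), both in mean log2(TPM + 1); dotted lines mark 2. Most genes far from 0 lie along the diagonal, with Calb1 and Hist1h2ap at its ends, while Klk1, Lair1, Ccr9, Trim28, Mxd3 and Cenpf have run mates within 1.

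Restricted to the 4274 genes whose run mates were within 1, a limit chosen after the values were seen, 60 genes (1.4%) were higher in pDC and 185 (4.33%) in the pre-pro-B gate. On the pDC side the 15 largest ran from 2.60 to 3.35. They began with Klk1, Lair1, Ccr9 and Ccr2, and went on to Apc, Nme7, Eps15, Srgap3 and Ifngr2, a chain of the interferon gamma receptor. Ifngr2 was level with CDP in pDC (-0.01). In the pre-pro-B gate it stood at -0.47 against CLP and -3.84 against GMP, so its run mate value averages unlike levels. In pDC 12 of these 15 had their own run's CDP below them, though by amounts under 1 in some. On the other side the 15 ran from -4.56 to -3.48 and held Trim28, a corepressor (-4.56), Mxd3, Ifi27l2a (-4.06), Hmgn2, the proteasome genes Psmb1 and Psma4, Hat1 and Cenpf, a kinetochore gene (-3.48).

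Ccr2, a chemokine receptor that draws cells out of the marrow, was among the genes of this set. It was at 10 TPM or more in 11 of 27 pDC and no pre-pro-B gate cell, with a highest cell of 3.81 TPM there, and differed by 3.21. In pDC it exceeded CDP by 2.07, and in the pre-pro-B gate it was level with CLP (0.02) and lay at -4.46 against GMP, whose mean of log2(TPM + 1) was 4.70.

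Genes of endosomal sensing did not differ by the threshold. Of 10 listed genes 9 were in the file and 7 were compared, and none was called in either direction. Among all compared genes 6.08% were called higher in pDC and 13.8% in the pre-pro-B gate. Pld4, an endosomal nuclease, lay at medians of 416.6 and 463.2 TPM, and it exceeded CDP by 3.36 and CLP by 3.70. Unc93b1, which carries Toll-like receptors to the endosome, reached 10 TPM in 21 pDC and 29 pre-pro-B gate cells. Tlr7 did so in 7 and 9 cells and Tlr9 in 2 and 2.

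Of 11 lysosomal protease genes, 6 were higher in pDC than in CDP by 2 or more and 5 were higher in the pre-pro-B gate than in CLP, where 1.41% and 3.06% of all compared genes were. Against GMP 3 were higher and 3 lower in the pre-pro-B gate. Their median was 2.07 in pDC against CDP and 1.65 in the pre-pro-B gate against CLP, while between the gates it was -0.23. Ctsh, Ctsb and Ctsl exceeded CDP by 4.69, 3.78 and 4.67 and CLP by 4.40, 3.06 and 5.11. Lgmn (legumain) stood alone in the list, at medians of 330 and 2.80 TPM and a difference of 5.89, with run mates at 5.08, and stood at -0.87 in the pre-pro-B gate against CLP. Antigen presentation genes leaned to pDC, with H2-Aa (2.16) the 1 of 7 compared that was called. Without the 3 pDC above 20% mitochondrial TPM none was. Among all compared genes 6.08% were called higher in pDC. In both gates H2-Aa was at 0 in some cells and at 2860 TPM or more in the highest.

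**Figure D5:**
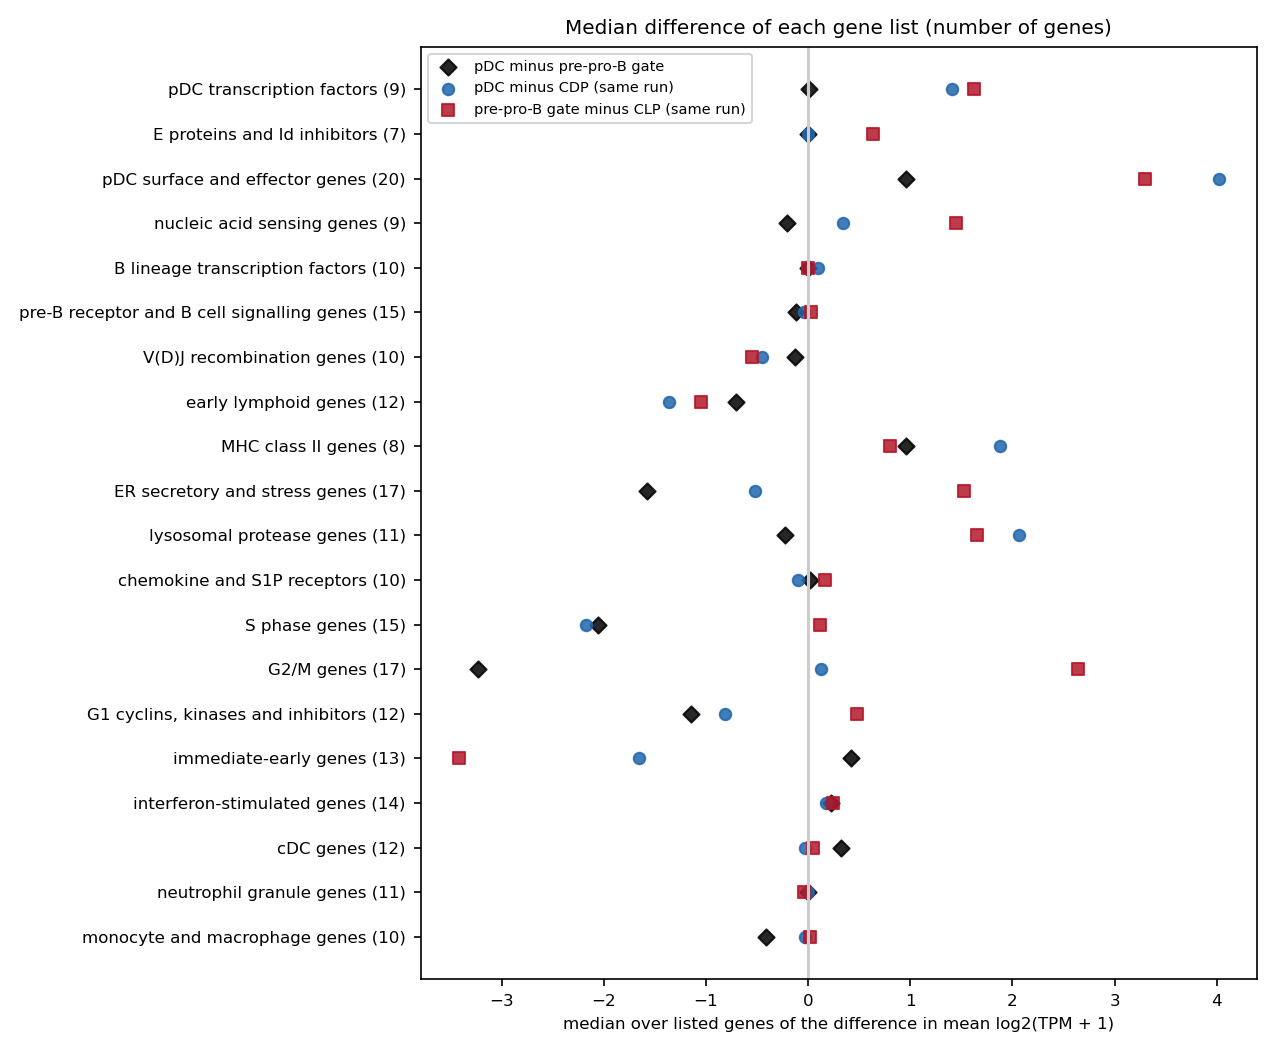
Median over the genes of each list of 3 differences in mean log2(TPM + 1): between the gates (diamonds), pDC minus CDP (circles) and pre-pro-B gate minus CLP (squares), with the number of genes in brackets. The pDC surface and effector genes lie at 4.02 and 3.30 within the runs and at 0.96 between the gates, and the G2/M genes at 0.12 and 2.64 within the runs and at -3.23 between the gates.

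Most markers of other cell types were low in both gates, with exceptions. Ly86, of the monocyte list, lay at medians of 176.2 TPM in pDC and 783.3 TPM in the pre-pro-B gate. Of the 10 monocyte and macrophage genes 4 were compared, and Ccr2 was higher in pDC and Lyz2 in the pre-pro-B gate (-3.01). Among all compared genes 6.08% and 13.8% were called so. Klrd1, a receptor gene of natural killer cells, reached 10 TPM in 10 of 27 pDC and 20 of 30 pre-pro-B gate cells, a difference of -2.80, and exceeded CLP by 3.47 in the pre-pro-B gate. The part of such cells in the results was not tested. Elane, a granule protease of GMP, was at 0 in all pDC and between 0 and 40.3 TPM in the pre-pro-B gate, with a mean of log2(TPM + 1) of 3.41 there, 3.26 in CLP and 12.79 in GMP of the same run. Mpo lay between 6.55 and 26.2 TPM in all pre-pro-B gate cells and at 6.79 TPM or less in pDC. Fcnb, Ltf, Camp, Ngp, S100a8 and S100a9 were at 0 in all cells of both gates. The T cell genes Trac and Cd3g and the natural killer genes Ncr1, Gzma and Gzmb were also at 0 in all cells of both.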

How the data were processed

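The authors deposited TPM per gene symbol and cell, made with RSEM 1.2.19 on GRCm38 per the submitters' processing notes. For the aligner and the annotation the entry is: not given in the sources used here. Depth is unknown. All values were used as deposited, and no 2 columns were identical. A gene was compared if at least 20% of the cells of either gate had 1 TPM of it (8239 genes), after setting aside 12 genes under 200 nt and 680 absent from a whole library run. Lengths came from GENCODE M21, which held 91.2% of 43280 symbols. The value was the difference in mean log2(TPM + 1), a scale that understates changes of low genes. Members and the 29 gene lists were chosen with earlier results of these data known. Named genes are the 15 largest each way found at 1 TPM in at least 50% of cells of the higher gate, without predicted, mitochondrial, ribosomal protein, sex-linked, receptor segment and sort-protein genes, and list members. No doublet caller was run. The steps were tested on simulated data. Computation was in Python 3.11.15 (pandas 2.3.3, numpy 2.4.6), exact intervals came from scipy 1.17.1 and figures from matplotlib 3.10.9.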

Additional observations from a re-analysis of the deposited data

How the results depend on the processing

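No paired analysis was possible because replicate numbers only name cells and no result comes from a test. As a percent of the 8239 compared genes, genes higher in pDC came to 16.9 with a pseudocount of 0.1, 1.13 with 10, 17.5 with the log2 of the mean TPM, 16.4 with the 3 pDC of the second run alone and 0.728 with run mates within 1. Genes higher in the pre-pro-B gate came to 22.4, 5.94 and 2.25 with the pseudocounts and with run mates within 1. Median-of-ratios size factors moved the median of all compared genes by 0.30. The log2 of the mean moved it by 0.29, the pseudocount of 10 by 0.11 and the 3 pDC alone by 0.23. The median of the pDC transcription factors was 1.12 with the 3 pDC alone, and that of the V(D)J recombination genes was -1.26 with the log2 of the mean. With the 3 pDC alone 4 called genes changed sign, to 2.01 for Cdkn2d, 1.06 for Dntt, -1.06 for Klk1 and 0.36 for Spcs1. The cause was not tested. The others of the 122 called genes named or listed kept their sign there, and all 122 kept it with each other pseudocount, scale and set of cells tried. Fewer stayed at 2 or more: 69 with a pseudocount of 10, 84 with the log2 of the mean TPM, 110 with size factors and 99 with the 3 pDC alone. Leaving out the 3 pDC above 20% mitochondrial TPM or the 3 cells with Ebf1, both chosen after seeing the data, moved neither count of called genes by over 1.5 times. Comparing only cells with Y-linked transcripts was not run, since 1 pre-pro-B gate cell had them without Xist.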

Other observations

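Immediate-early genes, which cells switch on quickly when handled or stimulated, differed between the gates and also within the runs. Of 13 listed genes 11 were compared, and Fosb (2.87), Egr1 (2.88) and Btg2 (3.03) were higher in pDC and Klf2 (-2.43) in the pre-pro-B gate. Among all compared genes 6.08% were higher in pDC and 13.8% in the pre-pro-B gate. Within the runs, 6 of the 13 were lower in pDC than in CDP by 2 or more, against 8.56% of all compared genes, and 10 were lower in the pre-pro-B gate than in CLP, against 1.44%. Fos had means of log2(TPM + 1) of 5.21 in pDC, 4.43 in the pre-pro-B gate, 9.54 in CDP and 9.87 in CLP.

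Genes of the secretory pathway differed in part. Of 17 listed genes 7 were higher in the pre-pro-B gate and none in pDC, against 13.8% and 6.08% of all compared genes. Their median was -1.58, and the run mates had a median of -1.94. In pDC the median stood at -0.52 against CDP. The pre-pro-B gate exceeded CLP by a median of 1.53. Against GMP its median was -1.32, with none of the 17 higher and 5 lower by 2 or more. Of all compared genes 21.3% were lower against GMP by 2 or more. Spcs1 (-4.87) and Sec11c (-3.99), subunits of the signal peptidase complex, differed most. Xbp1, the factor that expands the secretory pathway, did not reach the threshold (-0.92) and exceeded CDP by 2.97 and CLP by 1.98.

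Most interferon-stimulated genes were low in both gates. Among all compared genes 13.8% were called higher in the pre-pro-B gate and 6.08% in pDC. Of 14 listed genes 8 were compared, and Ifi27l2a was the 1 called, higher in the pre-pro-B gate (-4.06). It reached 10 TPM in 19 of 27 pDC and 28 of 30 pre-pro-B gate cells. Isg15 and Ifit1 were at 0 in the median cell of both gates.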
